A study of Mustela putorius furo with 8 samples.

Results

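Cluster 14 of the cystic fibrosis (CF) cells was a group of cells that the authors had separated among the CF cells, and their cell table gave it the class name centroacinar. Its members were taken as every cell with that cluster number, which gave 365 of 11345 CF cells and of 32945 cells in the whole series. The cells came from polarized pancreatic ductal epithelia (PDE) of newborn ferrets, with the genotype CFTR KO/KO in the CF libraries and WT in the controls, grown at an air-liquid interface and sequenced with the 10x Genomics droplet method on day 2, 5, 7 and 9. Cells had been passaged repeatedly as ductal cultures before seeding, and cells of several donors were pooled. Each genotype gave 1 library per day, so no value below has a replicate error, and no cell was assigned to a donor. Cluster 14 held 1 cell at day 2, 45 at day 5, 111 at day 7 and 208 at day 9, and levels are compared with the other CF cells of the same library at day 7 and day 9.

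CFTR is the chloride and bicarbonate channel of duct cells that is lost in cystic fibrosis. Centroacinar cells sit at the tip of the ducts, inside the acinus, and are known for SOX9 and the Notch target HES1. Ducts of the pancreas secrete a bicarbonate-rich fluid, and under injury duct cells can take on mucus-secreting, basal-like or matrix-producing gene programmes.

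Cells of cluster 14 were deeper than the other CF cells at day 7 and day 9 and shallower at day 5, where the medians were 19581 and 22888 unique molecular identifiers (UMIs) per cell. The median was 27139 UMIs in cluster 14 and 22996 in the other CF cells at day 7, and 21263.5 and 19717 at day 9. No cell of the cluster had fewer than 3000 UMIs, while 411 and 224 of the other cells did. The median share of mitochondrial UMIs was 6.45% against 5.59% at day 7 and 4.92% against 5.89% at day 9. Of the cells in the deepest 5% of each library, 5 at day 7 and 5 at day 9 belonged to cluster 14. CF libraries shared between 1 and 9 cell barcodes pairwise, and none of these was a cell of cluster 14.

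The cluster took a larger share of each later CF library. Of the retained cells, day 2 gave 0.0222%, day 5 gave 1.64% (95% Clopper-Pearson interval 1.20 to 2.18), day 7 gave 6.91% (5.72 to 8.26) and day 9 gave 8.36% (7.30 to 9.51). The intervals of day 2, day 5 and day 7 did not overlap, while those of day 7 and day 9 did. With the cells of at least 3000 UMIs as denominator, the share was 9.28% at day 7 and 9.18% at day 9. With the cells deposited as centroacinar as denominator, days 5, 7 and 9 gave 2.74%, 10.1% and 10.6%. All intervals in this text are 95% intervals and cover counting error only, and day cannot be told apart from library.

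**Figure D1:**
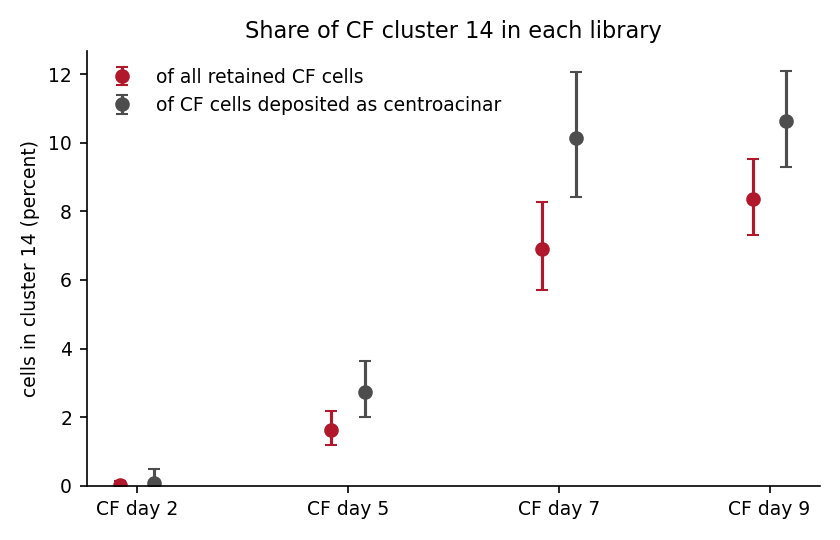
Percent of CF cells in cluster 14 in each library, of all retained cells (red) and of the cells deposited as centroacinar (grey), with exact Clopper-Pearson intervals. The red points stand at 1.64, 6.91 and 8.36 percent on days 5, 7 and 9, and the intervals of days 7 and 9 overlap.

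The class name was checked against the markers the study gave for its classes. Levels are UMIs summed over cells and scaled to CPM, which is UMIs per 1000000 UMIs, and differences are on the log2(CPM + 1) scale, cluster 14 minus the other CF cells. Of the 6 centroacinar markers 5 were in the annotation and 4 reached 10 CPM on either side, and none of these was 2-fold higher in cluster 14 on either day. KRT7, a simple epithelial keratin, was at 4224 CPM against 3530 at day 9, and WSB1 was at 113 against 145 CPM. The calcium-binding proteins S100A6 and S100A4 were lower, by -1.89 and -3.98, and S100A4 had 0 UMIs in the cluster at day 7. PROM1 was at 0.644 CPM against 8.49 at day 9, from 3 UMIs.

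Most of the comparison cells carried the same class name, with 1957 of the 2489 cells of day 9 deposited as centroacinar, cluster 14 included, so this comparison says little about the name itself. The cells are called by their cluster number below. SOX9, which marks centroacinar cells and pancreatic progenitors, was also low, with 3 UMIs or 0.644 CPM at day 9 against 12.97 CPM. HES1 was at 906 CPM against 497, a difference of 0.87. Among the markers of the study's ductal class, ADIRF was at 3337 CPM against 1570 at day 9 (1.09), and KRT19 and KRT5 differed by 0.47 and 0.76. The median over the 5 measured ductal markers was 0.47 at day 9 and 0.45 at day 7. Of the 12 markers of the centroacinar progenitor class, 10 were measured, of which 7 at day 9 and 8 at day 7 were at least 2-fold lower. Their medians of -3.36 and -3.63 became -1.19 and -1.30 against the other centroacinar-class cells alone.

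Some lists of other cell types were at 0 at day 9 and others were not. Summed over their lists at day 9, acinar enzymes and factors and the endothelial and neural lists stood at 0 CPM in cluster 14. All 8, 6 and 5 annotated members were at 0, and the ionocyte list was likewise at 0 for 3 of 3. The other CF cells were near 0 on these lists too, at 0.0882, 0.243, 0.0662 and 0 CPM in the same order. The acinar enzymes and factors had 15 listed genes, of which 8 were annotated. The study's own acinar class markers, such as LDHA, a glycolytic enzyme, were present, with a sum of 692 CPM against 463, a median difference of 0.50 and 0 of 7 past 2-fold. The immune list summed to 3.43 CPM against 8.36, with 6 of 7 members at 0. The tuft list summed to 1.07 against 0.860 and the ciliated list to 1.93 against 1.59. The endocrine list summed to 21.7 CPM against 23.4 in the other cells, nearly all of it ISL1, and 10 of its 14 members were at 0. The fibroblast list summed to 329 CPM against 279 at day 9, of which VIM was 323, but to 181 against 274 at day 7. On both days 1 of its 2 measured members was at least 2-fold lower and 0 were higher. The smooth muscle and myofibroblast list summed to 610 CPM against 721 at day 9 and to 220 against 679 at day 7, nearly all of it TAGLN and MYL9, while ACTA2 was at 0.429 CPM at day 9. The goblet and secretory list summed to 97.2 CPM against 665 at day 9, of which AGR2 was 76.6. The part of such cells in the results was not tested.

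At day 9, 182 of 8111 genes of at least 10 CPM on either side (2.24%) were at least 2-fold higher in cluster 14, and 376 (4.64%) were at least 2-fold lower. At day 7 there were 83 higher genes of 8137 (1.02%) and 319 lower (3.92%). Of the 7914 genes measured on both days, 63 were higher on both (0.796%) and 262 were lower on both (3.31%), and 0 were past 2-fold in opposite directions. The 63 shared higher genes were 75.9% of those at day 7 and 34.6% of those at day 9, and the 262 shared lower genes were 82.1% and 69.7%. The clusters had been called on the expression of the same cells, so these are descriptions of the cluster with no test. When every other CF cluster weighed the same, 105 genes were higher and 625 lower at day 9.

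TGFBI had the largest excess in cluster 14 at day 9 on the log2(CPM + 1) scale, which gives less weight to low genes such as PID1. It codes for a secreted matrix protein induced by TGF-beta and had levels of 177, 215 and 208 CPM (195 to 221 for the last) on days 5, 7 and 9, against 14.5, 16.8 and 11.4 CPM in the other CF cells. The ratio at day 9 was 18.2 (16.4 to 20.3). After each cell was thinned to 3000 UMIs, 42.8% of cluster 14 cells at day 9 held a TGFBI UMI against 2.38% of the others, and without thinning 88.0% against 9.51%. At either depth, TGFBI was seen in a larger share of the cluster than of the other cells.

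EFEMP1, the matrix protein fibulin-3, was at 30.04 CPM against 1.52 at day 9 and at 35.7 against 2.23 at day 7. COL14A1, a collagen that binds to other collagen fibrils, was at 21.2 against 1.28 CPM and at 31.5 against 3.12. NPNT, an integrin ligand of basement membranes, was at 51.7 against 7.19 CPM at day 9 and 36.6 against 10.8 at day 7. LOXL2, an enzyme that crosslinks collagen, stood apart from these. It was at 21.2 CPM against 3.40 at day 9 but at 4.54 against 3.595 at day 7, so its difference was seen on 1 of the 2 days. At day 9 and without thinning, 26 of 208 cells held a LOXL2 UMI, and 10 cells held 66.7% of them. Matrix lists as a whole did not share this excess. In the collagen list, which does not hold COL14A1, 0 of 8 measured members were higher and 4 lower at day 9 (median -1.08). At day 7, 0 of 6 were higher and 3 lower (-1.34). The matricellular and basement membrane list had medians of -0.29 and -0.55, with TGFBI its single gene 2-fold higher on either day.

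LY6D, a surface protein of stratified and basal epithelia, had the highest level of the leading genes. On days 5, 7 and 9 its levels in cluster 14 were 2233, 1455 and 2633 CPM, against 589, 330 and 367 CPM. In thinned cells at day 9, 79.8% of cluster 14 held a LY6D UMI and 23.5% of the other cells did. DLK2, a membrane protein related to the Notch ligands and known from basal cells, was at 24.5 against 2.12 CPM at day 9 and 30.6 against 10.8 at day 7. TP63, the transcription factor of basal cells, was at 136 against 53.1 CPM (1.34) and at 167 against 94.2 (0.82). The basal keratin KRT5 did not pass 2-fold, and 2 of the 5 measured basal markers did at day 9.

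SELENOP, the secreted carrier of selenium, was at 318 CPM against 55.6 at day 9 and 231 against 74.1 at day 7, and 97.6% of unthinned cluster 14 cells at day 9 held a UMI. PID1, an adaptor protein that binds the LRP1 receptor, was at 20.2 against 0.485 CPM at day 9 and 17.3 against 0.414 at day 7. PLA2G7, the hydrolase of platelet-activating factor, was at 51.1 against 6.37 CPM and at 39.7 against 4.61. The others of the 15 highest were RAB38, ADGRB1, DBN1, CRYL1 and 1 identifier with no gene symbol, with differences between 2.29 and 2.61 at day 9. Except for LOXL2, these 15 differed by at least 1.43 on the log2 scale at day 7 too.

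Of the 10 lowest genes of cluster 14, 7 had a gene symbol, and SPINK1 was the lowest at day 9. This trypsin inhibitor, secreted with pancreatic enzymes, had 8 UMIs or 1.72 CPM at day 9 against 288 CPM, a difference of -6.73, and 2.12 against 64.3 CPM at day 7. MMP7, a metalloproteinase of ductal and glandular epithelium, was at 11.8 against 564 CPM at day 9 and 4.54 against 185 at day 7. TFF2, a trefoil peptide of mucus, was at 6.87 against 223 CPM, and MUC16, a membrane mucin, was at 4.72 against 159 CPM at day 9. LTF, the iron-binding lactoferrin, was at 3.22 against 123 CPM, and the chemokine CXCL17 was at 6.22 against 286 CPM. Each of these 6 genes was at least 22.9-fold lower at day 7 and at least 32.5-fold lower at day 9.

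WFDC2, a secreted protease inhibitor, behaved differently across days. It was at 8.37 CPM against 298 at day 9 but at 35.1 against 102 at day 7, and compared with the other centroacinar-class cells alone it was higher at day 7, by 0.58.

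**Figure D2:**
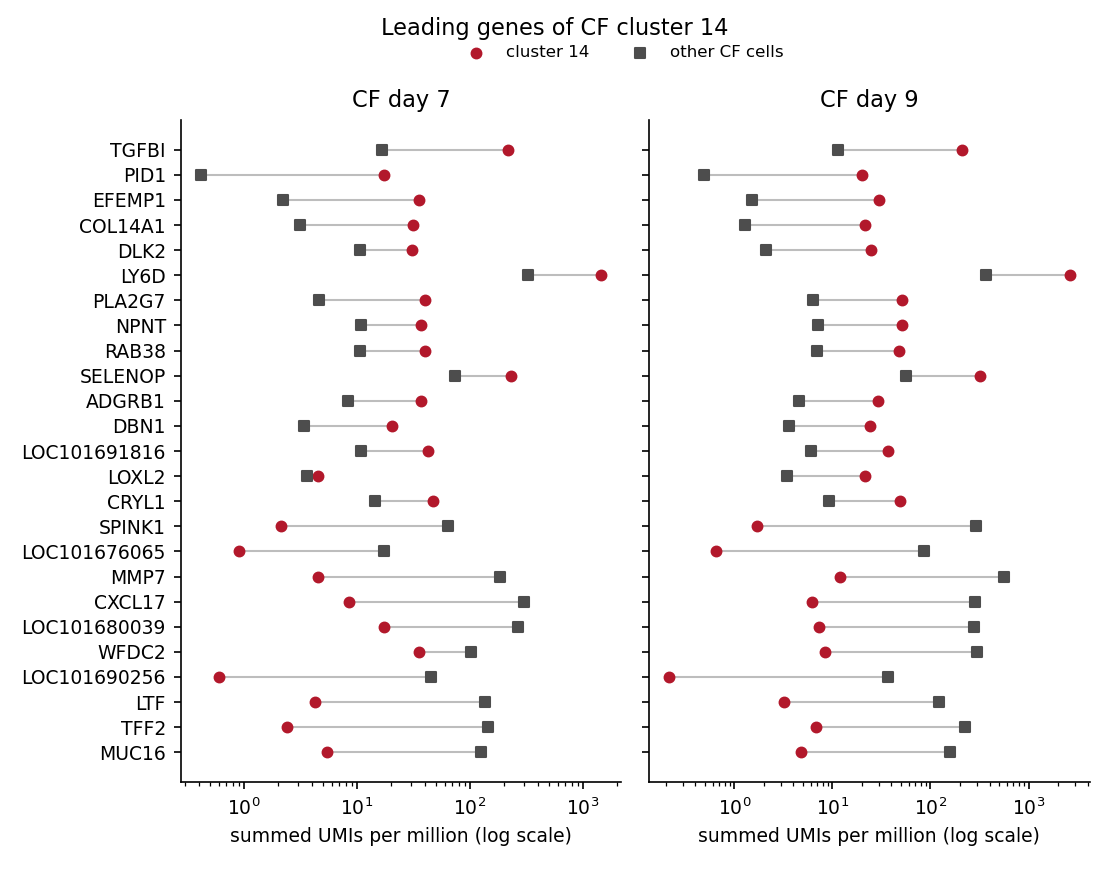
CPM in cluster 14 (red circles) and in all other CF cells of the same library (grey squares) for the 15 highest and 10 lowest genes of cluster 14, on a log axis, at day 7 and day 9. TGFBI and LY6D lie to the right of the other cells and SPINK1 and MMP7 to the left on both days, and the 2 LOXL2 points lie close together at day 7.

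By list, the secretory programme was low as a whole. All 5 measured mucins were at least 2-fold lower on both days, with a median of -3.92 at day 9 and -4.23 at day 7, where the median over all tested genes was 0.08 and -0.02. MUC1 was at 33.3 against 451 CPM at day 9, and 9.62% of thinned cluster 14 cells held a MUC1 UMI against 41.2% of the others. MUC5AC, the main gel-forming mucin of gastric and airway surfaces, was at 1.07 against 50.5 CPM. Of 6 measured trefoil and gastric genes 5 were lower at day 9 (median -2.60), all 4 measured secreted defence genes were lower (-4.11), and 3 of 5 and 3 of 4 were at day 7. The comparison cells mattered: against the other centroacinar-class cells alone, the medians at day 7 were -1.80 for mucins, -0.46 for trefoil and gastric genes and -0.30 for secreted defence, and at day 9 the trefoil and gastric median was -1.19.

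Lists with few measured members were these. In the squamous and cornified envelope list, the sum was 2757 CPM against 480 at day 9 and 1575 against 435 at day 7, nearly all of it LY6D, which also stands among the leading genes, and 8 of its 12 annotated members had 0 UMIs. None of the 3 measured EMT transcription factors passed 2-fold on either day. Of the MHC class II and antigen presentation list, CD74 was at 3.65 against 18.7 CPM at day 9 and B2M at 1501 against 1966. The mesothelial list had 1 measured gene, UPK3B, at 15.7 against 47.2 CPM. Against the other centroacinar-class cells alone, CD74 and UPK3B were higher at day 7, by 0.57 and 0.59.

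Umbrella-like surface genes were mixed. The uroplakin UPK1A was at 18.02 against 302 CPM at day 9 and the transcription factor GRHL3 at 3.22 against 23.2, while UPK1B was at 567 against 465 CPM. Simple keratins had 0 of 4 members past 2-fold on either day. Of the 16 measured junction genes 1 was lower at day 9 (OCLN, a tight-junction protein, 25.1 against 70.9 CPM), and E-cadherin, CDH1, was at 326 against 545 CPM.

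Targets of p53 were in part lower than in the pooled other CF cells. MDM2, the ubiquitin ligase that degrades p53, was at 146 CPM against 409 at day 9 and 124 against 271 at day 7. CDKN1A, the cell cycle inhibitor p21, was at 369 against 891 CPM (-1.27) and at 339 against 658 (-0.95). ZMAT3, an RNA-binding p53 target, was at 32.8 against 108 CPM, the lowest of the 11 CF clusters of at least 50 cells at day 9. In all, 4 of 9 measured targets were at least 2-fold lower at day 9 and 3 of 9 at day 7, with medians of -0.42 and -0.38. The S phase and G2/M lists had few measured members. None of the 5 S phase genes at day 9 was past 2-fold, nor was PLK1, the single measured G2/M gene, on either day. In the cell cycle control list, which also holds CDKN1A, 2 of 8 measured members were lower at day 9 and 1 of 8 at day 7. Of its members 0 were higher, and its medians were 0.10 and 0.0077.

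Ribosomal protein genes were higher by a smaller and even amount. None of the 72 measured members passed 2-fold, and the median was 0.41 at day 9 and 0.42 at day 7. RPL3 and RPS4X, both of the ribosome's core, were each 0.98 higher at day 9. Per cell, ribosomal proteins took a median of 16.2% of UMIs in cluster 14 against 11.9% in the other cells at day 9, and 17.5% against 12.8% at day 7. With TMM scaling, whose factor at day 9 was -0.11 on the log2 scale, the median of this list at day 9 was 0.30. The nuclear respiratory chain list had a median of -0.04 at day 9 and -0.05 at day 7, with 0 of 66 and 0 of 65 members past 2-fold.

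Signalling lists differed by less than 2-fold in the median. Of 7 measured BMP targets 3 were higher at day 9: ID4, an inhibitor of helix-loop-helix factors, at 341 against 144 CPM, SMAD9 at 17.6 against 5.78, and the inhibitory SMAD6 at 33.3 against 15.97. At day 7, 1 of 8 was. Of the 7 measured Notch genes LFNG, a glycosyltransferase of Notch receptors, was at 103 against 41.4 CPM and the ligand JAG2 at 53.2 against 25.6, and none was 2-fold higher at day 7, when the receptor NOTCH2 was lower, at 26.6 against 63.8 CPM. Growth factors with at least 2-fold higher levels at day 9 were HBEGF, an EGF receptor ligand (131 against 52.7 CPM), PDGFA (308 against 126) and GAS6, a ligand of AXL-type receptors (156 against 72.6). Of the 11 measured growth factors 3 were higher and 2 lower at day 9. AREG, another EGF receptor ligand, was 1 of the lower ones, at 94.2 against 319 CPM. Clusters 16, 3 and 11 were low in AREG as well, at 73.9, 87.8 and 54.7 CPM. At day 7, 1 of 11 growth factors, HBEGF, was higher and 0 were lower, with AREG at 136 against 206 CPM. The immediate early genes FOSB and JUNB were at 175 against 65.8 and at 825 against 332 CPM at day 9, and at 148 against 138 and 813 against 485 at day 7.

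WNT targets had 0 of 5 higher and 1 of 5 lower on both days, the secreted WNT inhibitor DKK1, at 70.2 against 156 CPM at day 9. TGF-beta targets other than TGFBI did not pass 2-fold upwards. In that list 1 of 12 was higher and 2 of 12 were lower at day 9, and 1 and 4 at day 7.

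**Figure D3:**
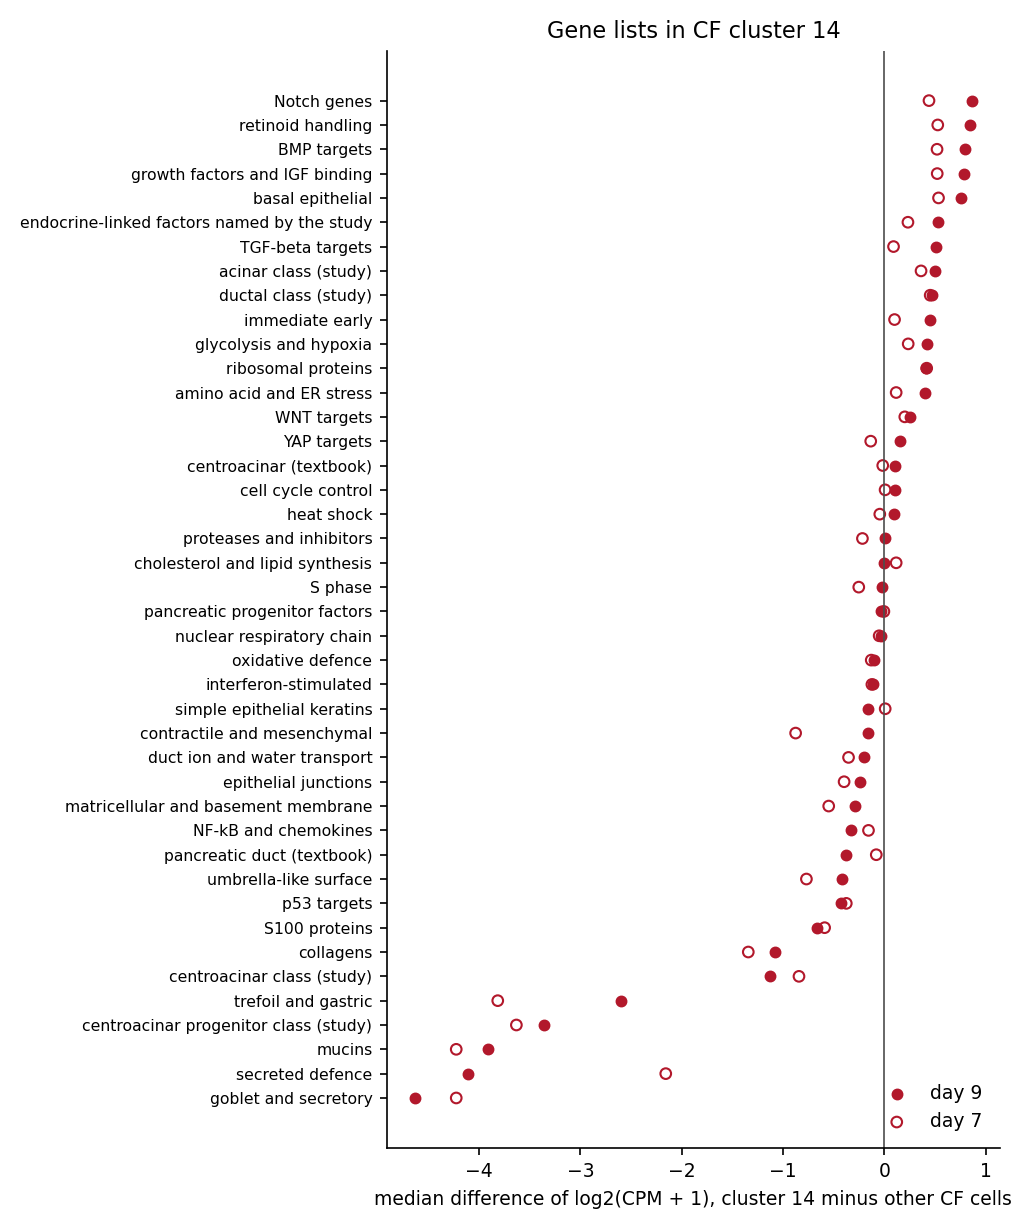
Median difference of log2(CPM + 1), cluster 14 minus the other CF cells, over the measured members of each gene list shown, all with at least 4 of them, at day 9 (filled) and day 7 (open). Mucins, goblet and secretory genes lie near -4 on both days, while ribosomal proteins lie at 0.41 and 0.42.

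CFTR itself was sparse. It was at 3.65 CPM in cluster 14 at day 9 (17 UMIs, 2.12 to 5.84) against 12.2 in the other CF cells and 29.5 in the WT library of day 9, and at 3.93 against 11.9 CPM at day 7. It was the lowest of the 11 CF clusters of at least 50 cells at day 9, a rank that rests on few UMIs. Clusters 13 and 21 among them had medians of 951.5 and 957.5 UMIs per cell. At day 2, CF cluster 1 was lower, at 1.24 CPM. The study describes KO/KO ferrets as having no CFTR mRNA, while CFTR UMIs were counted in the CF cells. The position of the deletion relative to the counted end of the transcript was not given in the sources used here, so these levels do not check the genotype. PDX1, the pancreatic master factor, was at 9.44 CPM (44 UMIs, 6.86 to 12.7) against 3.93 at day 9 and 8.47 against 4.68 at day 7, and had 0 UMIs in the WT library of day 9. SOX2 had 2 UMIs in cluster 14 at day 7 and 0 at day 9, and the latter allows up to 0.644 CPM, against 88.8 CPM in the WT library. PAX6, a factor of endocrine lineages, was level, at 48.1 against 47.5 CPM.

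Ion transport genes differed in both directions. Of the epithelial sodium channel subunits, SCNN1A, the pore-forming alpha subunit, was at 2.36 against 72.6 CPM at day 9, while the gamma subunit SCNN1G was at 44.2 against 9.09 CPM. At day 7 they were at 3.63 against 90.0 and at 34.5 against 17.5 CPM, where SCNN1G did not pass 2-fold. The chloride channel ANO1 was at 21.5 against 77.3 CPM and the sodium-potassium-chloride cotransporter SLC12A2 at 53.2 against 161 CPM at day 9. In the whole list, 3 of 12 measured genes were higher and 4 lower at day 9, and 0 and 4 of 13 at day 7.

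Clusters 16, 3 and 11, all deposited as centroacinar, were most like cluster 14 at day 9. Across genes, Pearson's r of log2(CPM + 1) was 0.974 with cluster 16, 0.951 with cluster 3 and 0.895 with cluster 11. It was at most 0.790 with the other CF clusters of at least 50 cells at day 9. Clusters with fewer cells in that library were not ranked. With clusters summed over all CF libraries, clusters 5 (0.9646) and 0 (0.9538) came before cluster 3 (0.9515), and cluster 11 was at 0.8981. Genes are not independent replicates, and the sums share library and depth, so these are descriptions. At day 9, 63 genes of 8053 (0.782%) were at least 2-fold higher in cluster 14 than in cluster 16 and 52 (0.646%) lower, and at day 7 there were 64 (0.783%) and 100 (1.22%). On both days 32 (0.408%) were higher and 22 (0.281%) lower. Among WT clusters of day 9 the nearest was WT cluster 8, deposited as ductal, with r of 0.923.

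SPINK1, MMP7 and MUC1, described above as low in cluster 14, were low in these 3 clusters too. SPINK1 was at 3.17, 2.80 and 2.31 CPM in clusters 16, 3 and 11 at day 9, and MMP7 at 10.9, 27.5 and 19.3. MUC1 was at 25.4, 10.7 and 10.7 CPM there. LY6D was high in cluster 16 as well, at 1686 CPM, but at 398 in cluster 3 and 119 in cluster 11. MDM2 was at 221 CPM in cluster 16 and at 787 and 832 in clusters 3 and 11. TAGLN, an actin-binding protein of contractile cells, differed among them. It was at 50.3 CPM in cluster 16, 474 in cluster 14, 841 in cluster 3 and 2877 in cluster 11 at day 9, and COL4A1, a basement membrane collagen, was at 6.35, 1.29, 55.3 and 118 CPM in the same order.

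A small set of genes differed strongly between cluster 14 and cluster 16. With a limit of 8-fold in the same direction on both days, which was chosen after values had been seen, 7 genes were higher and 4 lower in cluster 14. HSPB1, the small heat shock protein HSP27, was at 36.3 CPM in cluster 14 against 1556 in cluster 16 at day 7 and at 58.1 against 1565 at day 9. It was thus 42.8-fold (35.8 to 51.8) and 26.9-fold (23.8 to 30.6) lower, and clusters 3 and 11 were at 1921 to 2353 CPM. At day 9, 185 of 208 cells of cluster 14 held 0 or 1 HSPB1 UMI, where all 118 cells of cluster 16 held at least 1 and their median was 26. After thinning to 3000 UMIs the shares with a UMI were 10.6% and 93.2%. Against all other CF cells, the other 8 of the 9 measured heat shock genes were within 2-fold on both days.

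The genes on the higher side were TGFBI, EFEMP1, PID1, DPP4, F5, EID1 and LOC101688663, which has no gene symbol. TGFBI was at 2.13 and 3.63 CPM in cluster 16 at day 7 and day 9, so that cluster 14 was 101-fold (52.98 to 222) and 57.3-fold (29.0 to 133) higher. DPP4, a surface peptidase also known as CD26, was at 20.3 and 26.6 CPM in cluster 14 with 0 UMIs in cluster 16 on both days. Against a floor of 3 counts over cluster 16, DPP4 was at least 28.6-fold and 19.6-fold higher, and PID1 at least 24.3-fold and 14.8-fold. Without thinning, 37.5% of cluster 14 cells at day 9 held a DPP4 UMI and 34.6% a PID1 UMI, where 0 of 118 cells of cluster 16 did. Several of these genes were sparse, with EID1 in 19.2% and F5 in 25.96% of unthinned cluster 14 cells at day 9. LOC101688663 was still at 27.7 CPM in cluster 16. F5, coagulation factor V, was at 13.9 and 14.8 CPM in cluster 14 with 1 and 0 UMIs in cluster 16. On the lower side SMARCA1, a chromatin remodelling ATPase, had 2 UMIs at day 7 and 1 at day 9 in cluster 14 and stood at 27.2 and 26.3 CPM in cluster 16. LOC101688164 was at 2.15 against 48.5 CPM at day 9, and LOC106006842 at 0.429 against 12.2.

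**Figure D4:**
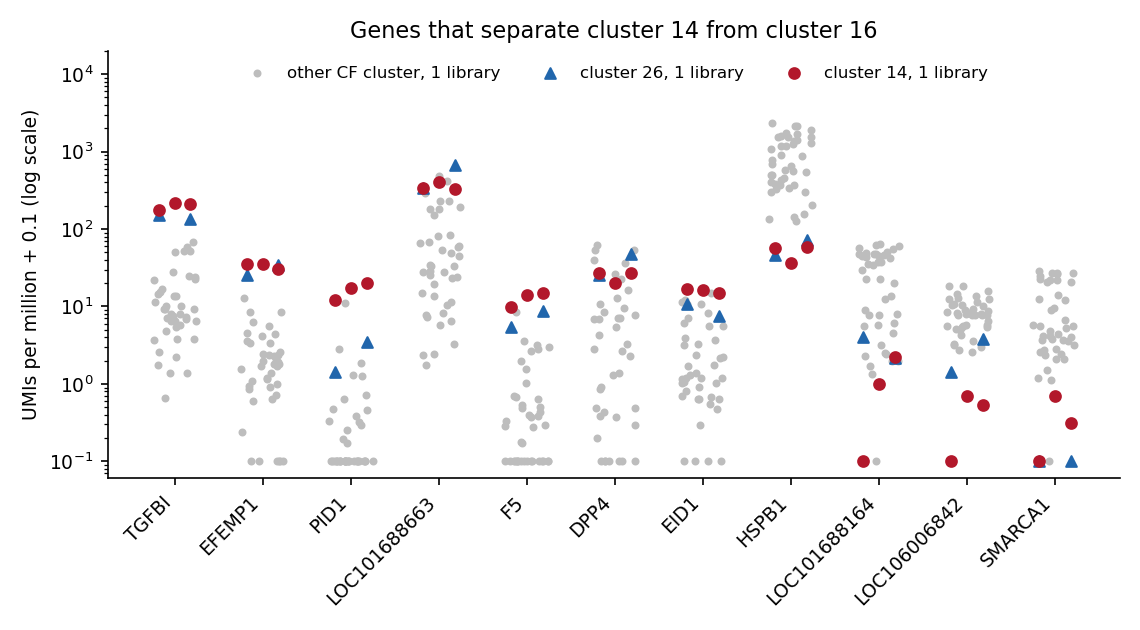
CPM + 0.1 on a log axis for the 11 genes at least 8-fold apart between clusters 14 and 16 on both days, with each point the sum of 1 cluster in 1 CF library: cluster 14 at day 5, 7 and 9 (red circles), cluster 26 at day 2 and day 5 (blue triangles) and the other CF clusters of at least 50 cells (grey). For TGFBI the red points lie between 177 and 215 CPM and the grey ones at 67.2 or less, and for HSPB1 the red and blue points lie below all grey ones, which start at 128.

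The same genes were compared over the 42 sums of at least 50 cells that the remaining CF clusters gave over all days, without cluster 26. TGFBI ranged from 0.553 to 67.2 CPM there, EFEMP1 from 0 to 12.6, PID1 from 0 to 11.04 and F5 from 0 to 8.28, and cluster 14 lay above each range. HSPB1 ranged from 128 to 2353 CPM, and cluster 14 lay below. LOC106006842 ranged from 2.52 to 18.4 CPM, and cluster 14 lay below it too, at 0.605 CPM at day 7 and 0.429 at day 9, from 2 UMIs on each day. DPP4, EID1, LOC101688663, LOC101688164 and SMARCA1 did not set cluster 14 apart from all of these sums. DPP4, for example, reached 61.9 CPM in cluster 18 at day 9. With cluster 26 included, HSPB1 would not set cluster 14 apart either, as the values of cluster 26 below show. At day 5, EFEMP1 and F5 were held by similar shares of cells in clusters 14 and 26, so these genes did not part those clusters.

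WT clusters were near cluster 14 for some of these genes and apart from it for others. Over the 18 WT clusters of day 9, HSPB1 had a median of 35.5 CPM and ranged from 6.02 to 2388, and TGFBI ranged from 5.56 to 1742. SMARCA1 was at most 0.648 CPM, and LOC101688164 had a median of 0.789 and a maximum of 50.6. Low HSPB1, SMARCA1 and LOC101688164 were thus found in many WT clusters as well. PID1 was at most 2.23 and F5 at most 0.144 CPM, while LOC106006842 was at least 15.9. In WT cluster 8, the nearest to cluster 14 over all genes, HSPB1 was at 2388 and TGFBI at 8.85 CPM.

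The combination was also seen among the 45 cells of cluster 14 at day 5. Their expression had placed these cells in the cluster, with all CF days clustered together, so this is a description and no independent finding. TGFBI was at 177 CPM there, EFEMP1 at 35.6, DPP4 at 26.7, HSPB1 at 57.3, and SMARCA1 had 0 UMIs. Cluster 26, deposited as ductal, held much of it too. It had 52 cells at day 2, 96 at day 5, 25 at day 7 and 20 at day 9. In cluster 26, TGFBI was at 153 and 134 CPM at day 2 and day 5, DPP4 at 25.2 and 47.9, and HSPB1 at 46.5 and 71.6, with SMARCA1 at 0 UMIs. PID1 was lower there, at 1.33 and 3.33 CPM. Without thinning, 53.1% of cluster 26 cells at day 5 held an EFEMP1 UMI and 16.7% an F5 UMI. In cluster 14 at day 5 these shares were 53.3% and 17.8%. At day 2 the shares in cluster 26 were 26.9% and 7.69%. Over all genes, however, cluster 14 at day 5 was most like cluster 0, with r of 0.963, followed by cluster 5 at 0.953 and cluster 26 at 0.943. Whether cells of the cluster came from particular donors was not tested, since no cell was assigned to a donor.

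Between day 7 and day 9, Pearson's r across genes was 0.984 in cluster 14 and 0.991 in the other CF cells. In cluster 14, 36 of 7925 genes (0.454%) were at least 2-fold higher at day 9 and 14 (0.177%) lower. In the other CF cells 18 of 7962 were higher and 13 lower. The sums of cluster 14 held 3303880 and 4661014 UMIs, against 31432072 and 45348698 in the other cells. Counting error was therefore larger in cluster 14, and whether it changed more was not tested. Matrix and contractile genes were among those with the largest difference between the days. FN1, fibronectin, was at 21.2 CPM at day 7 and 170 at day 9, while the other CF cells were at 444 and 458. ANKRD1, a target of YAP, was at 16.6 and 124 CPM, against 206 and 169. CALD1, an actin-binding regulator of contraction, was at 29.97 and 209 CPM, against 403 and 460. TAGLN was at 140 and 474 CPM, against 538 and 603. On each of these, cluster 14 stayed below the pooled other CF cells on both days. The genes were uneven over those cells, and cluster 14 was above the typical CF cluster. Over the 42 sums of the other CF clusters, all days taken and cluster 26 left out, the medians were 5.62 CPM for FN1 and 2.78 for ANKRD1. They were 8.63 for CALD1 and 4.04 for TAGLN, and the maxima of the 4 genes were 3565, 1227, 2377 and 3317 CPM. Cluster 16 was at 7.33 and 19.5 CPM of FN1 and at 61.7 and 50.3 CPM of TAGLN, so cluster 14 lay between cluster 16 and clusters 3 and 11 for both genes.

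SPP1, the secreted phosphoprotein osteopontin, was at 357 and 1738 CPM in cluster 14 and at 1159 and 1960 in the other CF cells. The SPP1 and FN1 levels were spread differently over cells, counted here without thinning. At day 9, 174 of 208 cells held an SPP1 UMI with a median of 9, against 62 of 111 cells and a median of 1 at day 7, and the 10 cells with most SPP1 held 39.8% and 67.5% of its UMIs on these days. FN1 was held by 65 of 208 cells at day 9, and the 10 cells with most of it held 57.2% of its UMIs. The other contractile and matrix levels were also uneven: ANKRD1 was held by 49 cells, of which 10 had 68.4% of its UMIs, TAGLN by 77 (51.6%) and CALD1 by 65 (49.95%), each with a median of 0 per cell. Of the 27 cells with at least 10 FN1 UMIs, 22 held 0 or 1 HSPB1 UMI and 26 held TGFBI. Among all 208 cells of the cluster, 185 and 183 did, so these cells were much like the cluster as a whole on both genes. Without the deepest 5% of cells, FN1 was at 178 CPM. On the lower side at day 9 were WFDC2, from 35.1 to 8.37 CPM, and the drug exporter ABCB1, from 46.9 to 15.9.

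**Figure D5:**
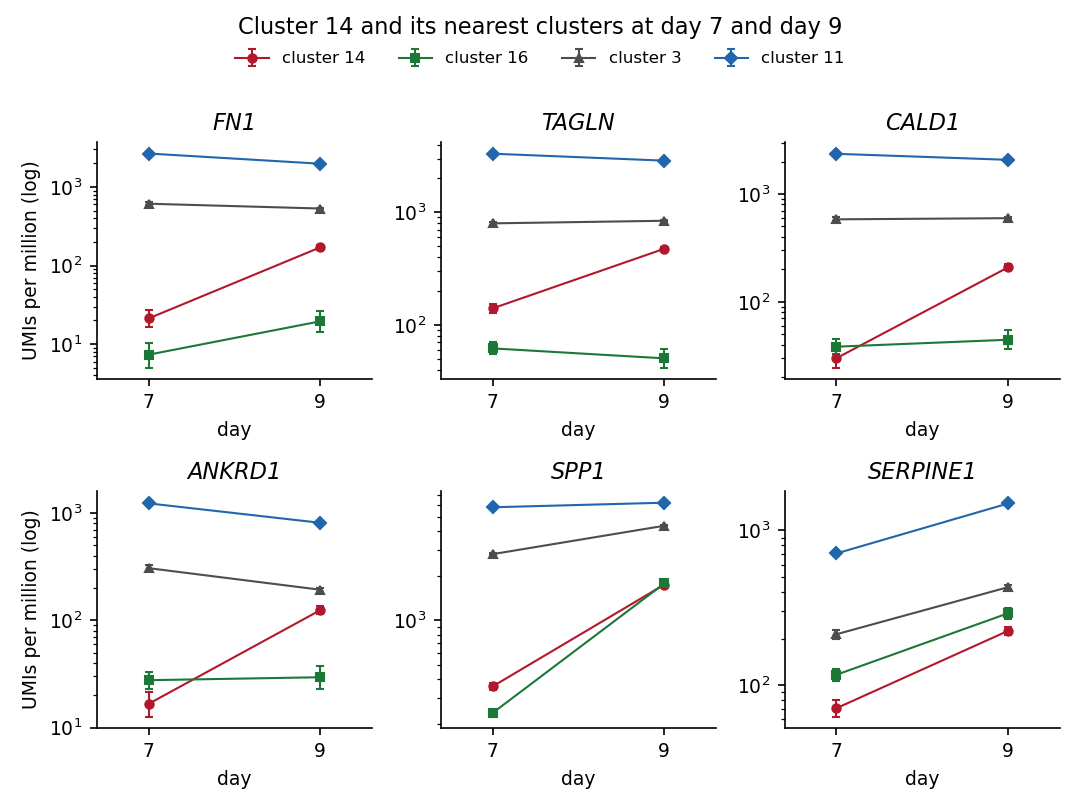
CPM at day 7 and day 9 on log axes in clusters 14, 16, 3 and 11 for 6 genes, with exact Poisson intervals for counting error. The red line of cluster 14 goes from 21.2 to 170 for FN1, while cluster 16 stays at 19.5 or less and clusters 3 and 11 at 531 or more.

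The deposited pseudotime scores placed the cluster on a pair of the 13 CF lineages. At day 9, 98.1% of cluster 14 cells were scored on lineage 5 and 98.6% on lineage 6, against 3.90% and 4.69% of the other CF cells, and at day 7 all 111 cells were scored on both. No cell of the cluster was scored on lineages 1 to 3 at day 7 or day 9. The median score on lineage 5 was 106 at day 7 and 109 at day 9, where the other CF cells on that lineage were at 102 and 103. These scores came from the same expression values as the clusters, so they are not an independent measure.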

How the data were processed

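The deposited count matrices held unique molecular identifier (UMI) counts per gene and cell, which the authors obtained with Cell Ranger 5.0.1 and the genome build ASM1176430v1.1. Per the study's methods, cells with under 200 genes or over 20% mitochondrial reads were dropped, doublets had been removed with DoubletFinder, libraries were merged without batch correction, and clusters were called within each genotype and named by correlation with published references. The deposited cell table gave the percent of mitochondrial UMIs, and the deposited lineage table gave a pseudotime score per cell. The deposited normalized values were not used here.

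UMIs were summed over the cells of a cluster or of the other CF cells in 1 library and scaled to counts per 1000000 UMIs (CPM). Cluster 14 had 1011773, 3303880 and 4661014 UMIs at day 5, 7 and 9. Genes of at least 10 CPM on either side were compared as log2(CPM + 1), a scale that understates the change of low genes, with a limit of 2-fold. With 1 library per genotype and day there was no test, and intervals are exact Poisson, Clopper-Pearson and conditional binomial ones at 95%. Where the text says so, shares of cells with a UMI were computed after thinning each cell to 3000 UMIs. This left out 411 and 224 shallower cells at day 7 and day 9, all outside cluster 14. Other shares and counts of cells holding UMIs were taken without thinning, at the full depth of each cell.

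Named genes were the 15 highest and 10 lowest differences at day 9 among genes of at least 20 CPM on the higher side with the same sign at day 7, then CFTR, PDX1, SOX2, PAX6, the centroacinar class markers, and up to 4 members per list with the largest difference. The genes set against clusters 16, 3, 11 and 26, and those described between days, were chosen after their values were seen. The members and lists were chosen with earlier results of these data known. Alternatives were TMM factors (edgeR 4.0.16), DESeq2 1.42.0 size factors, a pseudocount of 5 CPM, other filters, other comparison cells, and cells weighing the same. Scripts ran in Python 3.11.15 (numpy 2.4.6, pandas 2.3.3, scipy 1.17.1, matplotlib 3.10.9) and R 4.3.3, and were tested on simulated data. 1 gene list holds an item that is not reported here, so its results were left out.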

Additional observations from a re-analysis of the deposited data

Results flagged for a closer look

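WFDC2 was the single gene among those compared whose level moved in opposite directions by at least 2-fold between day 7 and day 9 in cluster 14 and in the other CF cells. It was at 35.1 CPM at day 7 and 8.37 at day 9 in cluster 14, a difference of -1.95 on the log2(CPM + 1) scale, and at 102 and 298 CPM in the other CF cells, a difference of 1.54. The make-up of the other CF cells changed between these days. Cluster 7, with the highest WFDC2 among the sums of the other CF clusters (697 CPM at day 9), had 473 of its 493 cells at day 9. The part of this in the rise was not tested, and with 1 library per day neither was the difference between the groups.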

How the results depend on the processing

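No paired analysis was possible because each group has 1 library, and for the same reason no library could be left out. The share of cluster 14 was 2.74%, 10.1% and 10.6% of centroacinar-class cells at day 5, 7 and 9, and 9.28% of cells of at least 3000 UMIs at day 7. The 83 higher genes of day 7 became 51 with a pseudocount of 5 CPM, 189 without a filter and 22 at 50 CPM or more, and the 319 lower ones 194 against centroacinar-class cells, 708 without a filter and 115 at 50 CPM. The 182 higher genes of day 9 became 110 with a pseudocount of 5 CPM, 110 as a mean over cells, 105 with clusters weighing the same, 333 without a filter and 61 at 50 CPM, and the 376 lower ones 625 with clusters weighing the same, 668 without a filter and 142 at 50 CPM. TMM, with a factor of -0.11 on the log2 scale at day 9, gave 133 higher and 429 lower genes. The cause of these moves was not tested beyond the filters, which change how many genes are compared. Against centroacinar-class cells alone, day 7 list medians were -0.24 for Notch genes, -0.56 for TGF-beta targets, -0.16 for basal, -0.14 for centroacinar class, -1.30 for progenitor class, -2.68 for collagens, -1.61 for contractile, -2.48 for goblet, -1.80 for mucins, -0.30 for secreted defence, -2.73 for smooth muscle, -0.46 for trefoil and 0.14 for umbrella-like genes, and at day 9 -1.19 for progenitor class and -1.19 for trefoil. CD74, UPK3B and WFDC2 then reversed at day 7, to 0.57, 0.59 and 0.58. The following settings were chosen after seeing the data. Leaving out the clusters of low depth gave 88 higher and 317 lower genes at day 7 and 197 and 367 at day 9. The 45 cells of day 5 gave 172 and 333. The nearest cluster over all CF libraries was again cluster 16, with r of 0.975, but clusters 5 (0.9646) and 0 (0.9538) came before cluster 3 (0.9515). Genes with few UMIs, such as CFTR, SOX9 and PROM1, are limited by depth.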
